A study of Mus musculus with 27 samples.

Results

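Cdh5, Cldn5, Pecam1, Emcn, Kdr, Tek, Eng, Robo4, Sox17 and Erg are genes by which endothelium and haemogenic endothelium are recognised. They were taken from the expression table by symbol, and all 10 were found among its 24418 entries with 24416 distinct symbols. HSPCs, the stem and progenitor cells of blood, had been sequenced in bulk from C57BL/6 mice in 27 libraries, 3 in each of 9 groups, and each value is in FPKM, a read count scaled to transcript length and library size. From the embryo and fetus come E12.5 PL, E12.5 FL and E16.5 FL. The marrow is covered by a Perinatal BM group and by ages of 1, 3, 4, 6 and 8 weeks, called 1w BM to 8w BM. FL usually stands for fetal liver and BM for bone marrow, while the labels leave PL without a full name. Every group carries the same strain label and the same HSPC label. The sources used here do not state a treatment, an engineered allele, the markers of the sort, the sex, the perinatal day or any pooling of animals.

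Blood stem cells of the embryo arise from haemogenic endothelium, endothelial cells that round up, leave the vessel wall and switch on the blood programme. In that transition the proteins of the endothelial junction and the receptors of vessel growth are turned down, while a number of surface proteins and transcription factors remain shared between endothelium and stem cells. Vascular endothelial growth factor acts through Kdr, the angiopoietins act through Tek, and Eng is a co-receptor for ligands of the TGF-beta family. Erg is a transcription factor of the ETS family that endothelium and blood stem cells both use.

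By GENCODE vM21 (GRCm38), all 10 are protein-coding. The junction and surface genes are Cdh5 at chr8:104101625-104144511, Cldn5 at chr16:18776847-18778262, Pecam1 at chr11:106654217-106750628 and Emcn at chr3:137341067-137432185. The receptors are Kdr at chr5:75932827-75978458, Tek at chr4:94739289-94874976, Eng at chr2:32646595-32682669 and Robo4 at chr9:37401897-37415115. The transcription factors are Sox17 at chr1:4490931-4497354 and Erg at chr16:95359169-95586593.

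RefSeq promoter sequence (GRCm38.p6) was matched by symbol for 7 of the 10 genes, which left out Cdh5, Sox17 and Pecam1. In the 250 bases before each start site both strands were searched for an ETS core written as CNGGAAG, because Erg is an ETS factor. The motif was found in 26.6% of the 32851 promoters of the same length. One match each lay in the windows of Robo4, Emcn and Erg, and the first 3 sequences show it in capitals, on the opposite strand in Emcn and Erg. The Erg window shown is 1 of 3 start sites, and the other 2 held no match. Kdr and Cldn5, shown for contrast as genes at or under 1.34 FPKM outside E12.5 PL, held none, and neither did Tek and Eng. A match describes the letters only, and its absence from a window says nothing of whether a factor binds there.
Robo4 promoter, chr9:37401722-37401971, + strand: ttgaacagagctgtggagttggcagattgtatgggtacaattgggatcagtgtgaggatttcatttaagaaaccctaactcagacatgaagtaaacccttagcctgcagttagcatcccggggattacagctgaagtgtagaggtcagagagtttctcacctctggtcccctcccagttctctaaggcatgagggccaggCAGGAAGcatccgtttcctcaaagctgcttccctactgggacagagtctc
Emcn promoter, chr3:137340828-137341077, + strand: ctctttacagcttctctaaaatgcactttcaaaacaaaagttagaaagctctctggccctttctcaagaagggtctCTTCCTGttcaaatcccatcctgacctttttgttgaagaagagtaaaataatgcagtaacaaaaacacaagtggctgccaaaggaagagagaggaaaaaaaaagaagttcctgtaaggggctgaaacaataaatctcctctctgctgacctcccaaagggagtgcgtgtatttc
Erg promoter, chr16:95459349-95459598, - strand: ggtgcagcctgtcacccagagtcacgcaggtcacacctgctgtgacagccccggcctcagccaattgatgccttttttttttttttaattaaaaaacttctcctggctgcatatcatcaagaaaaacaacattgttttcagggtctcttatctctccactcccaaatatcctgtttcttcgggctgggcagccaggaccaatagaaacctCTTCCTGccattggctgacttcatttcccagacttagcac
Kdr promoter, chr5:75978456-75978705, - strand: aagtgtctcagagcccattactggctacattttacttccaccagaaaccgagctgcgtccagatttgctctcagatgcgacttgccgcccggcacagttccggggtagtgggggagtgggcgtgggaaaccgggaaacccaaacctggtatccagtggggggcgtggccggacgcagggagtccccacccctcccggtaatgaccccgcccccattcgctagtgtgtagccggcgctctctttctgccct
Cldn5 promoter, chr16:18776597-18776846, + strand: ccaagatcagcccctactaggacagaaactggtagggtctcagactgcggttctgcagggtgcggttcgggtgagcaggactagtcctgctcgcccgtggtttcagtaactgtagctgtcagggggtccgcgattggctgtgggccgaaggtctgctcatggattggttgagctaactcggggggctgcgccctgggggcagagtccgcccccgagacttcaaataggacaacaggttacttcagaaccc

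The libraries held 14241 to 16964 genes with a value above 0. Read counts are not given, so the depth of a library is unknown. Judged from the steps between low values, it ranged from 0.589 to 1.64 times that of the median library. Kit and Cd34, surface proteins of stem and progenitor cells, were present in every library. Cd34 is also on the list of endothelial surface genes used here and Kit on that of mast cell genes, so their presence does not single out HSPCs. Kit was at 53.0 to 74.6 FPKM in E12.5 PL and at 102 to 184 FPKM elsewhere. Cd34 was at 119.8 to 177 FPKM in E12.5 PL and at 278.6 to 368.5 FPKM elsewhere. The 3 E12.5 PL libraries stood apart from their label in other markers. Ptprc, the leukocyte antigen CD45, averaged 7.91 ± 2.79 FPKM there (SD, n = 3) and 62.8 to 77.9 FPKM in the other 8 groups. Summed over 20 pan-leukocyte genes, the level was 380 to 680 FPKM in E12.5 PL and 2187 to 3191 FPKM in the other 24 libraries. Trophoblast genes reached 1 FPKM for 17 of 20 in E12.5 PL, with a sum of 4017 to 4677 FPKM, against 22.9 to 114 FPKM in the other libraries, where Hand1 was listed at 0 throughout. Genes of stroma and pericytes reached 1 FPKM for 18 of 20 in E12.5 PL and summed to 1167, 2532 and 3104 FPKM, against 17.4 to 54.2 FPKM elsewhere. Of 10 genes of liver sinusoidal endothelium, 8 reached 1 FPKM in E12.5 PL, with a sum of 108 to 118 FPKM, against 2 of 10 and 4.87 to 8.02 FPKM in E12.5 FL. In bulk RNA, fewer cells of a type and less RNA per cell cannot be told apart.

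The comparison of E12.5 PL with E12.5 FL sets libraries that carry the HSPC label at the same embryonic age, with the marker levels above, against each other. Most of the 10 genes were higher in E12.5 PL, Cdh5 and Cldn5 by far and Eng by little, and Erg was lower. Summed over the 10 genes, the level was 958, 787 and 730 FPKM in the 3 E12.5 PL libraries, against 129 to 140 FPKM in E12.5 FL. By limma on log2(FPKM + 1), with p-values adjusted over 13350 genes, 9 of the 10 genes were higher and 1 was lower at an adjusted p under 0.05, where 74.2% of all genes tested passed, 41% as higher and 33.2% as lower. Cldn5 and Sox17 reached 1 FPKM only in E12.5 PL and were tested only for that reason, so their difference was built into the filter. Folds and differences were taken on log2(FPKM + 1), so changes of genes at low levels come out too small.

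Cdh5, which encodes VE-cadherin, the adhesion protein of the endothelial junction, stood at 262, 245 and 219 FPKM in E12.5 PL and at 1.96, 2.11 and 1.83 FPKM in E12.5 FL. The libraries were far apart, and the log2 difference was 6.36 ± 0.11 (SE; limma, adjusted p = 3.74e-23). Cldn5, the claudin of endothelial tight junctions, was at 155, 109 and 137 FPKM in E12.5 PL and at 0.118, 0.114 and 0.232 FPKM in E12.5 FL, a log2 difference of 6.85. Both junction genes were thus abundant in every E12.5 PL library and at or under 2.11 FPKM in each E12.5 FL library. Pecam1 (CD31), an adhesion molecule of endothelium that blood cells also carry, was at 201, 140.2 and 119 FPKM in E12.5 PL and at 26.5, 28.3 and 25.9 FPKM in E12.5 FL. It was 5.40-fold higher in E12.5 PL (log2 difference 2.43 ± 0.12, adjusted p = 1.31e-14). Emcn encodes endomucin, a sialomucin of veins and capillaries. It was at 87.4, 68.8 and 67.7 FPKM in E12.5 PL and at 13.5, 16.6 and 13.5 FPKM in E12.5 FL, 4.86-fold higher (adjusted p = 1.71e-12). Neither Pecam1 nor Emcn overlapped between these groups, but both were plainly present in E12.5 FL.

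Among the receptors, Kdr, the main VEGF receptor, was at 71.4, 50.9 and 39.1 FPKM in E12.5 PL and at 1.08, 1.17 and 1.34 FPKM in E12.5 FL. The log2 difference was 4.60 ± 0.13 (SE; limma, adjusted p = 3.33e-19). Tek, the angiopoietin receptor TIE2, was at 37.4, 34.1 and 29.3 FPKM in E12.5 PL and at 8.47, 8.64 and 8.44 FPKM in E12.5 FL, 3.62-fold higher (adjusted p = 1.98e-12). Robo4, a roundabout receptor of endothelium and stem cells, was at 36.1, 26.0 and 19.9 FPKM in E12.5 PL and at 5.47, 5.53 and 5.08 FPKM in E12.5 FL, 4.34-fold higher (adjusted p = 1.40e-09). Eng, the co-receptor endoglin, had the smallest rise of the 9 genes. Its levels were 69.1, 57.8 and 45.7 FPKM in E12.5 PL and 34.0, 35.8 and 35.6 FPKM in E12.5 FL, 1.60-fold higher (adjusted p = 1.58e-05). The receptors thus split into Kdr, close to 1 FPKM in E12.5 FL, and Tek, Robo4 and Eng, at 5 FPKM or more there.

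The 2 transcription factors went in opposite directions. Sox17, which marks arterial and haemogenic endothelium and fetal stem cells, was at 25.5, 44.9 and 43.6 FPKM in E12.5 PL and at 0.250, 0.280 and 0.562 FPKM in E12.5 FL, a log2 difference of 4.80. Erg was at 13.1, 10.2 and 8.80 FPKM in E12.5 PL and at 37.6, 41.6 and 38.7 FPKM in E12.5 FL. It was 3.48-fold lower in E12.5 PL, with no overlap (log2 difference -1.80 ± 0.11, limma, adjusted p = 3.73e-13). Within E12.5 PL, library 1 had the highest level of 9 of the 10 genes, all but Sox17. That library also had the highest pan-leukocyte sum of the 3, at 680 FPKM, and the lowest stromal sum, at 1167 FPKM. The part that the trophoblast, stromal and leukocyte levels had in these differences was not tested.

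**Figure D1:**
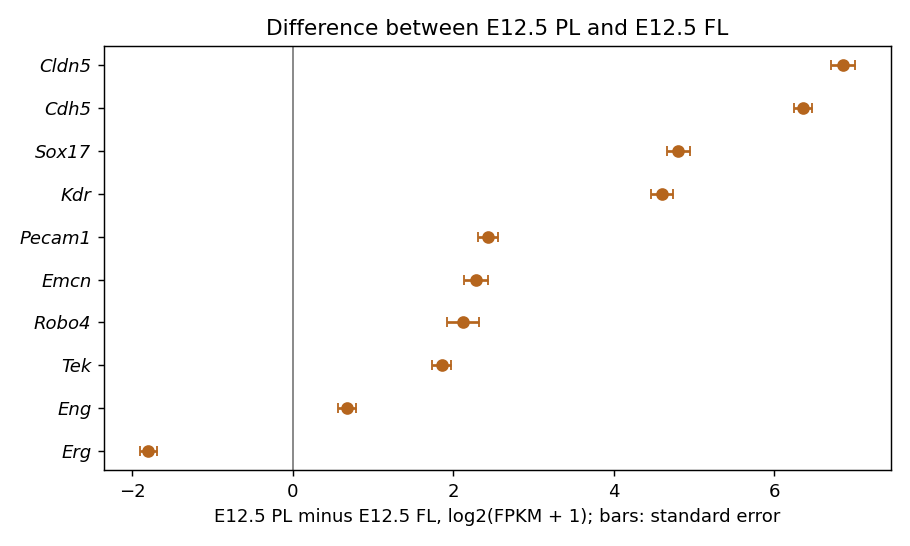
Difference between the means of E12.5 PL and E12.5 FL for each gene on the log2(FPKM + 1) scale, E12.5 PL minus E12.5 FL, with points for limma estimates and bars for standard errors (3 libraries a group). Cldn5 (6.85) and Cdh5 (6.36) lie farthest to the right, and Erg (-1.80) is the only gene left of 0.

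The wider vascular programme was described with lists of known genes. Genes that reached 1 FPKM in E12.5 PL alone were tested only for that reason, and their higher level was built into the filter, so the list counts and medians in this comparison support nothing by themselves. Of 20 vascular receptors, 18 were higher and 2 lower in E12.5 PL, with a median log2 difference of 2.93, against 0.06 over all 13350 genes tested. Of these, 5 (Aplnr among them) reached 1 FPKM in E12.5 PL alone, and of the other 15 receptors 13 were higher and 2 lower. Among these 15, Flt1 and Ednrb reached 1 FPKM in 5 libraries in all, so they too may have passed only with the help of E12.5 PL. Aplnr, the apelin receptor, averaged 47.6 ± 12.4 FPKM in E12.5 PL and 0.181 ± 0.089 FPKM in E12.5 FL (SD, n = 3 each). Nrp1, a co-receptor of Kdr, averaged 35.3 ± 4.45 FPKM in E12.5 PL and 0.454 ± 0.134 FPKM in E12.5 FL. Notch1, the Notch receptor of blood emergence, and Calcrl, a receptor of adrenomedullin, were 3.23-fold and 2.58-fold lower. Of 17 ligands tested, 12 were higher and 4 lower (median 2.12), and of the 13 not tested through E12.5 PL alone 8 were higher and 4 lower. Apln and Efna1, among these 13, reached 1 FPKM in only 4 libraries, so the same limit applies to them. The peptide hormones Adm and Edn1, 2 of the 4 tested through that group alone, had folds of 27.7 and 20.0, whereas Angpt1, the ligand of Tek, averaged 7.18 ± 2.25 FPKM in E12.5 PL and 59.8 ± 2.91 FPKM in E12.5 FL. Tgfb1, a ligand of the TGF-beta family, was 3.53-fold lower.

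Of 30 other surface and junction genes, 23 were higher and 5 lower in E12.5 PL (median 2.80). Without E12.5 PL library 2, 14 were higher and 4 lower, since the 9 genes that passed through E12.5 PL alone, Adgrf5 among them, then missed the filter, and without library 1 or 3 of that group 19 were called. Adgrf5, an adhesion receptor of endothelium, averaged 48.6 ± 8.15 FPKM in E12.5 PL and 0.128 ± 0.0214 FPKM in E12.5 FL (SD, n = 3 each), and the adhesion molecule Mcam was 39.1-fold higher. Mcam reached 1 FPKM in only 4 libraries, those of E12.5 PL among them, so its higher level was built into the filter as well. Mmrn1, a secreted protein of endothelium and platelets, and Adgrl4 were 4.91-fold and 4.14-fold lower. The 29 transcription factors tested did not share this direction. Of these, 13 were higher and 15 lower, with a median of -0.22, and of the 24 not tested through E12.5 PL alone 8 were higher and 15 lower. Epas1, the hypoxia factor HIF-2 alpha, averaged 120.3 ± 28.2 FPKM in E12.5 PL and 0.180 ± 0.0579 FPKM in E12.5 FL, and Sox7 had a fold of 21.3, both tested through E12.5 PL alone. Hlf and Runx1, factors of blood stem cells, were 11.9-fold and 7.40-fold lower, as Erg was lower.

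**Figure D2:**
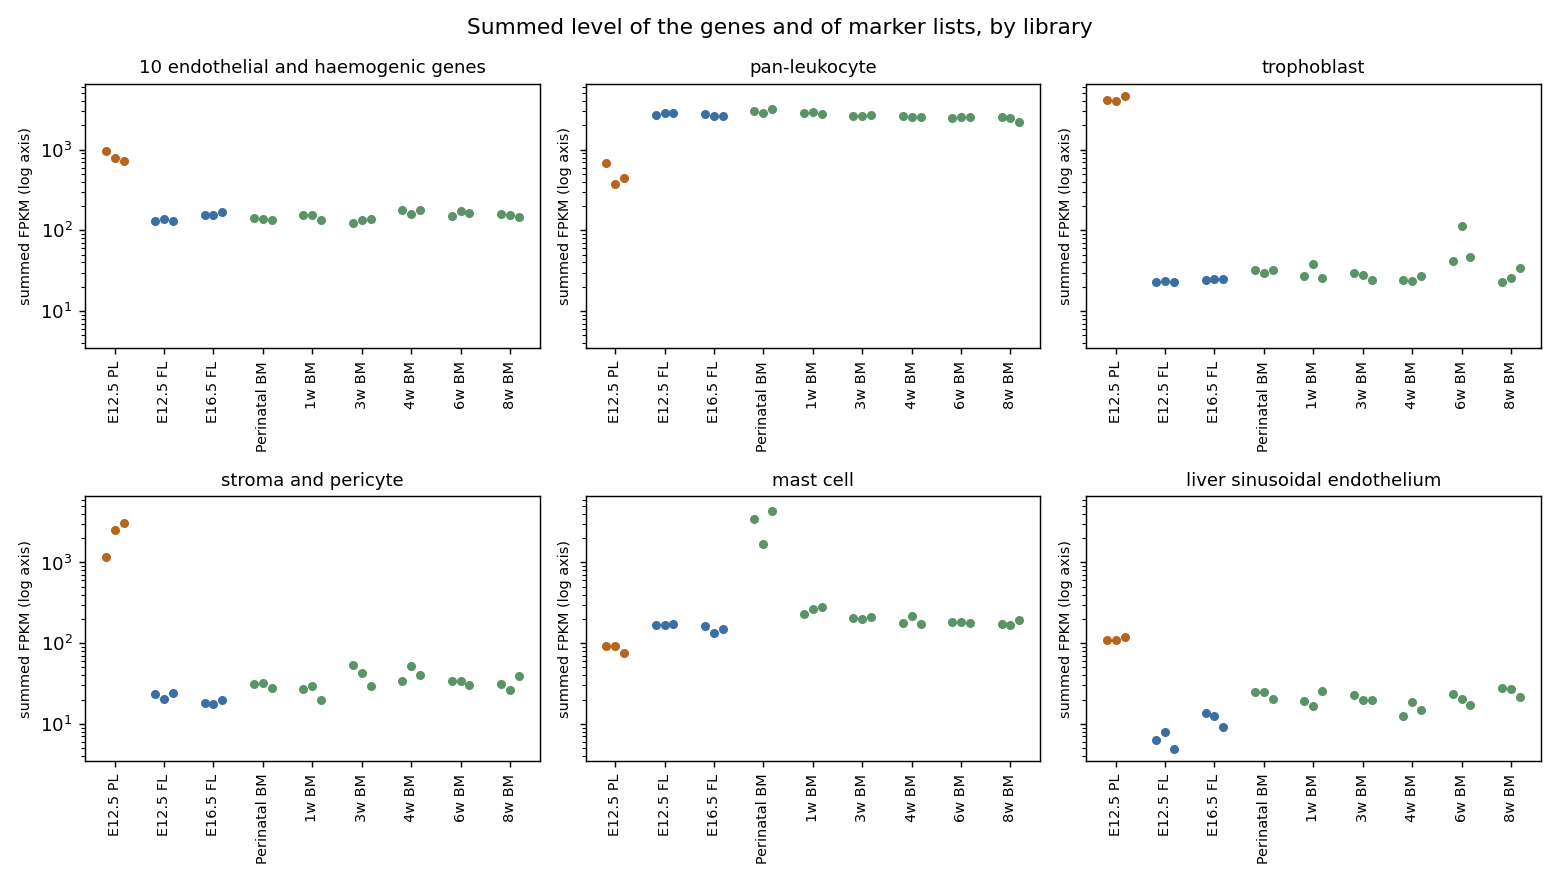
Summed FPKM of the 10 genes and of 5 marker lists in each of the 27 libraries, on log axes shared by all panels, with E12.5 PL in brown, FL in blue and BM in green. The 10 genes sum to 730 to 958 FPKM in E12.5 PL, where trophoblast and stromal sums are highest and pan-leukocyte sums lowest, and mast cell genes are highest in Perinatal BM.

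Outside E12.5 PL the genes fell into a low and an expressed set. Over the other 24 libraries, Cdh5 ranged from 0.0272 to 2.11 FPKM with a median of 0.169, and it reached 1 FPKM in 5 libraries, all of FL. Kdr ranged from 0.0474 to 1.34 FPKM (median 0.310) and reached 1 FPKM in the 3 E12.5 FL libraries only. Cldn5 ranged from 0.0694 to 0.979 FPKM (median 0.251). Sox17 ranged up to 0.562 FPKM (median 0.0591) and was listed at 0 in 7 of the 24. The other 6 genes were above 1 FPKM in every library. Tek had a median of 4.75 FPKM, Robo4 of 9.16 and Emcn of 11.2. Pecam1, Erg and Eng were the most abundant, with medians of 30.6, 42.8 and 45.4 FPKM per library.

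**Figure D3:**
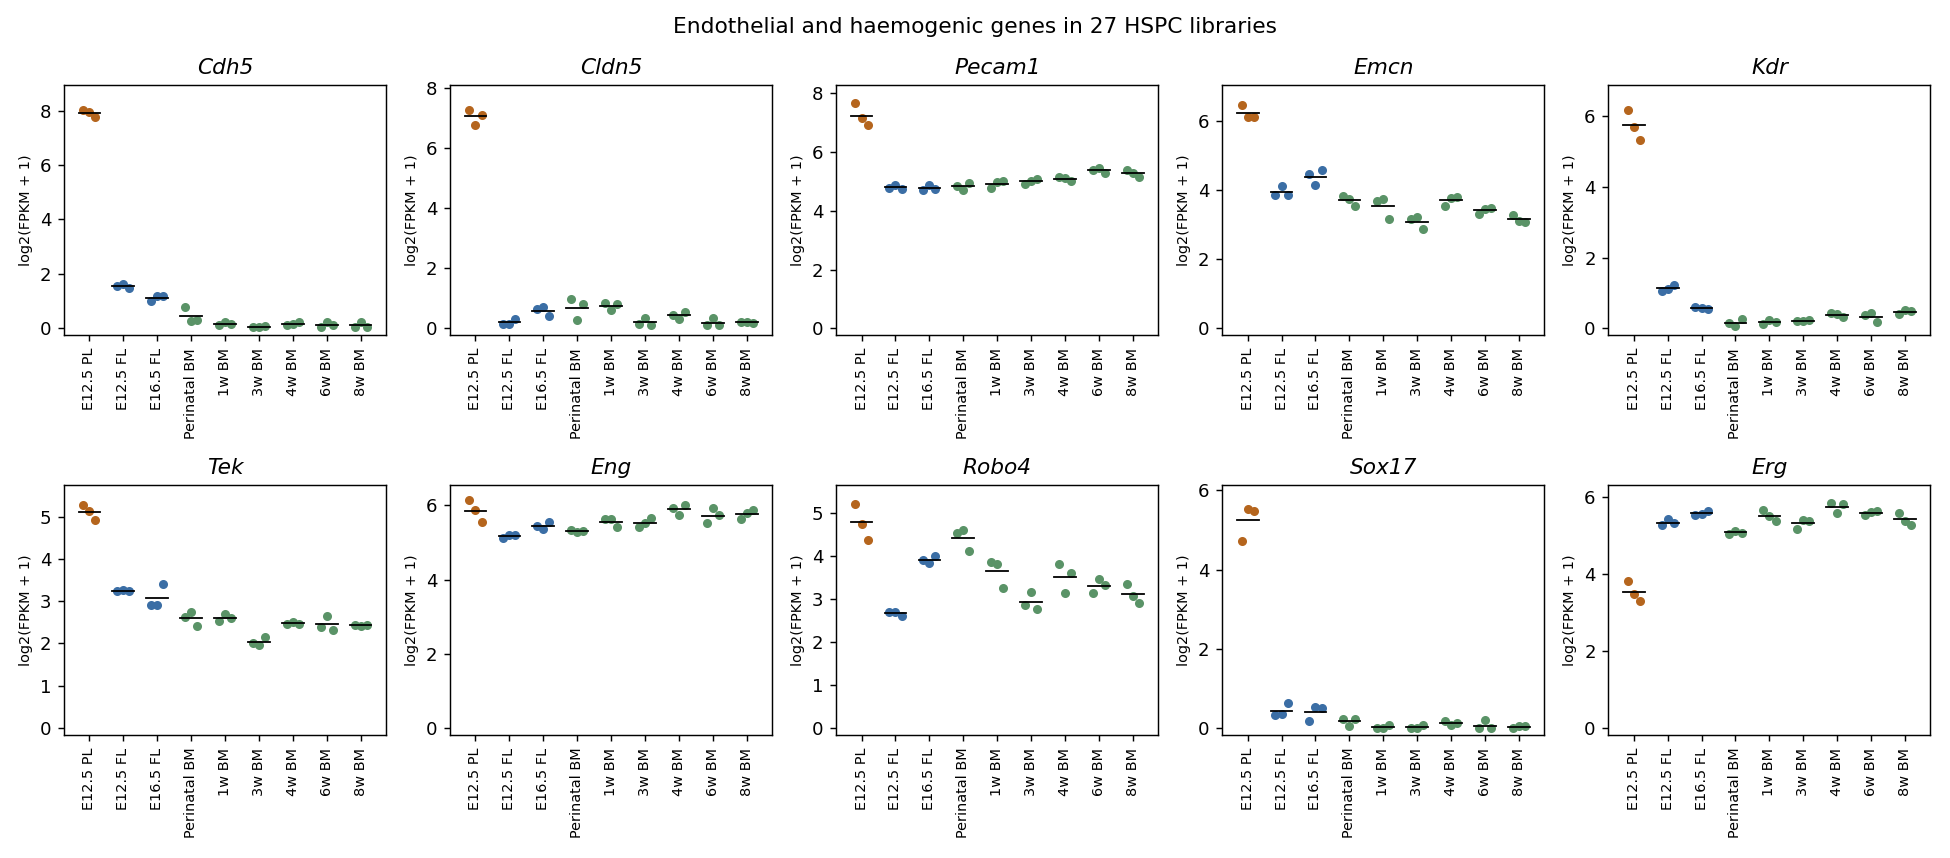
Level of each gene in the 27 libraries as log2(FPKM + 1), with a point for each library and a line for the group mean (3 libraries), E12.5 PL in brown, FL in blue and BM in green. Outside E12.5 PL, Cldn5 and Sox17 stay under 1 on this scale and Cdh5 and Kdr are highest in E12.5 FL, at means of 1.57 and 1.13, while Erg is lowest in E12.5 PL.

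A test of the 8 groups without E12.5 PL asked whether a gene differed anywhere among them. Of the 10 genes, 8 passed the filter in those 24 libraries, and all 8 differed (limma's F test, adjusted over 12094 genes, adjusted p from 4.31e-09 for Cdh5 to 3.27e-05 for Erg). Of all genes tested, 83.7% differed, so this count says little of these genes. Cdh5 and Kdr passed the filter only through FL libraries, where they were highest. Ranked by level over all 9 groups, neighbouring groups differed for 14 of 80 pairs. They differed for 3 pairs in Cdh5 and in Tek, 2 in Kdr and in Emcn, 1 in Cldn5, Sox17, Pecam1 and Erg, and none in Robo4 and Eng. A gap next to E12.5 PL was among them in every gene but Robo4 and Eng, and for Cldn5 and Sox17 it was built into the filter. The pairs were picked by ranking the same values and have no share over all genes beside them, so these counts describe the order only.

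The order of the levels differed from gene to gene. Cdh5 was highest in E12.5 PL, then in E12.5 FL, E16.5 FL and Perinatal BM, each above the next, and the 5 later BM ages followed with no difference between neighbours. Kdr ran from E12.5 PL to E12.5 FL to E16.5 FL, each above the next, and on to 8w, 4w, 6w, 3w and 1w BM and Perinatal BM. For Cldn5 the groups after E12.5 PL were 1w BM, Perinatal BM and E16.5 FL, and for Sox17 they were E12.5 FL, E16.5 FL and Perinatal BM, with the first gap alone called in either gene. Tek had called gaps below E12.5 PL, between E16.5 FL and 1w BM (limma, adjusted p = 0.0076) and between 8w BM and 3w BM, its lowest group (adjusted p = 0.0376). Emcn had them below E12.5 PL and between E16.5 FL and E12.5 FL. Pecam1 was highest in E12.5 PL, then in 6w BM and 8w BM, and lowest in E16.5 FL. Robo4 was highest in E12.5 PL, next in Perinatal BM (27.35 and 20.75 FPKM on average, adjusted p = 0.103) and lowest in E12.5 FL. Eng and Erg were both highest in 4w BM, Eng at 58.4 ± 5.22 FPKM with E12.5 PL next, and Erg at 52.8 ± 5.12 FPKM (SD, n = 3), while its only called gap put E12.5 PL below Perinatal BM.

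The step to E16.5 FL, set against E12.5 FL, asked how HSPCs labelled FL differed between these ages. Robo4, Emcn and Cldn5 were higher and Kdr and Cdh5 lower in E16.5 FL, which makes 5 of 10 genes at an adjusted p under 0.05, where 34.6% of all genes passed, 19% as higher and 15.6% as lower. Summed over the 10 genes the level was 153 to 171 FPKM in E16.5 FL and 129 to 140 FPKM in E12.5 FL. Of the marker lists of other cells, 8 of 12 macrophage genes tested were higher, with sums of 63.7 to 69.5 FPKM in E16.5 FL and 34.9 to 39.3 FPKM in E12.5 FL. The 10 genes of liver sinusoidal endothelium summed to 9.03 to 13.5 FPKM in E16.5 FL and 4.87 to 8.02 FPKM in E12.5 FL, and 2 of the 10 reached 1 FPKM in each group. This sum was not particular to FL, since it was 20.5 to 24.95 FPKM in Perinatal BM and 21.7 to 28.1 FPKM in 8w BM. Lyve1, Stab1, Stab2, Oit3, Gpr182 and Dnase1l3 reached 1 FPKM in only 3 of the 27 libraries, but Fcgr2b and Maf in 25 and 26. The part of these levels in the steps was not tested.

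Robo4 was at 14.1, 13.3 and 15.1 FPKM in E16.5 FL and at 5.47, 5.53 and 5.08 FPKM in E12.5 FL, 2.38-fold higher with no overlap (log2 difference 1.25 ± 0.20, SE; limma, adjusted p = 5.18e-05). Emcn was at 21.0, 16.6 and 22.9 FPKM in E16.5 FL and at 13.5, 16.6 and 13.5 FPKM in E12.5 FL, where the lowest E16.5 FL library all but met the highest E12.5 FL one. Its log2 difference of 0.44 (adjusted p = 0.0241) was not called without E12.5 FL library 1 or 3 or E16.5 FL library 1 or 3 (adjusted p of 0.0773 to 0.118). The junction genes differed in direction. Cdh5 was at 0.994, 1.27 and 1.29 FPKM in E16.5 FL and at 1.96, 2.11 and 1.83 FPKM in E12.5 FL, a log2 difference of -0.44 (adjusted p = 0.00433), which was not called with a pseudocount of 0.1 (adjusted p = 0.111). Cldn5 was at 0.560, 0.647 and 0.340 FPKM in E16.5 FL and at 0.118, 0.114 and 0.232 FPKM in E12.5 FL. Its log2 difference of 0.39 (adjusted p = 0.0444) was called without E16.5 FL library 3 but not without any 1 of the other 5 libraries (adjusted p of 0.0565 to 0.145), nor without a filter on low values (0.0662).

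Kdr was at 0.522, 0.493 and 0.473 FPKM in E16.5 FL and at 1.08, 1.17 and 1.34 FPKM in E12.5 FL, with a log2 difference of -0.55 (limma, adjusted p = 0.00259). The 3 E16.5 FL libraries were all under 1 FPKM and lay close together. Tek was at 6.49, 6.52 and 9.53 FPKM in E16.5 FL and at 8.47, 8.64 and 8.44 FPKM in E12.5 FL, so the groups overlapped (adjusted p = 0.267), and it was called lower, by -0.34, only without E16.5 FL library 3 (adjusted p = 0.0274). Eng was at 42.3, 40.3 and 46.0 FPKM in E16.5 FL and at 34.0, 35.8 and 35.6 FPKM in E12.5 FL. Erg was at 44.9, 45.6 and 48.9 FPKM in E16.5 FL and at 37.6, 41.6 and 38.7 FPKM in E12.5 FL. Eng and Erg did not overlap between the groups but missed the threshold (adjusted p = 0.0675 and 0.0886), and both were called higher in a fit without E12.5 PL (adjusted p = 0.0231 and 0.0349), in which 41.5% of all genes passed. Pecam1 and Sox17 overlapped, at 26.1 ± 1.64 and 26.9 ± 1.25 FPKM for Pecam1 in E16.5 FL and E12.5 FL (SD, n = 3 each; limma, adjusted p = 0.845).

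Perinatal BM, set against the same E16.5 FL libraries, differs from them in both organ label and age, and these cannot be told apart here. Cdh5, Emcn, Erg, Tek and Kdr were lower in Perinatal BM and none of the 10 genes was called higher, so 5 of 10 passed, where 28.4% of all genes passed and 14.2% passed as lower. With the 6 libraries of these groups fitted alone, 3 were called, 1 of them higher, and Cdh5 and Kdr missed the filter and were not tested. Mast cell genes were high in the Perinatal BM libraries. All 12 averaged 1 FPKM or more and summed to 3437, 1693 and 4284 FPKM in Perinatal BM, against 134 to 163 FPKM in E16.5 FL. For that reason 1w BM was also set against E16.5 FL, an alternative chosen after seeing the data, and 4 genes were then called, all lower, where 22.2% of all genes passed. The mast cell sum was far lower in 1w BM than in Perinatal BM, at 232 to 279 FPKM, but still above that of E16.5 FL. In 1w BM 9 of the 12 averaged 1 FPKM or more, against 6 of 12 in E16.5 FL. The part of the mast cell genes was not tested further.

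Cdh5 was at 0.726, 0.194 and 0.226 FPKM in Perinatal BM and at 0.994, 1.27 and 1.29 FPKM in E16.5 FL. The groups did not overlap, with a log2 difference of -0.68 ± 0.11 (SE; limma, adjusted p = 0.000118), and it was -0.95 with 1w BM in place of Perinatal BM. Emcn was at 13.3, 12.4 and 10.6 FPKM in Perinatal BM and at 21.0, 16.6 and 22.9 FPKM in E16.5 FL, 1.61-fold lower (adjusted p = 0.0013), and lower too with 1w BM (-0.86). Both genes thus lay lower in Perinatal BM and in 1w BM than in E16.5 FL. Tek was at 5.19, 5.68 and 4.33 FPKM in Perinatal BM and at 6.49, 6.52 and 9.53 FPKM in E16.5 FL (log2 difference -0.48, adjusted p = 0.0049). Without E16.5 FL library 3, its highest library, the difference was -0.31 and no longer called, nor was it in a fit of the 6 libraries alone (adjusted p = 0.0702). Kdr was at 0.111, 0.0474 and 0.203 FPKM in Perinatal BM and at 0.522, 0.493 and 0.473 FPKM in E16.5 FL, a log2 difference of -0.42 (adjusted p = 0.0203). It was not called without E16.5 FL library 1 or Perinatal BM library 1 or 2 (adjusted p of 0.0542 to 0.0762), and it was lower too with 1w BM (-0.39).

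Erg was at 31.99, 33.84 and 32.66 FPKM in Perinatal BM and at 44.9, 45.6 and 48.9 FPKM in E16.5 FL, 1.40-fold lower with no overlap (limma, adjusted p = 0.00155). With 1w BM in place of Perinatal BM its difference was -0.06 and not called. Robo4 was at 22.4, 23.4 and 16.4 FPKM in Perinatal BM and at 14.1, 13.3 and 15.1 FPKM in E16.5 FL. The groups did not overlap, but its log2 difference of 0.51 missed the threshold (adjusted p = 0.0599). It was called higher without Perinatal BM library 3 (adjusted p = 0.0244) and in the fit without E12.5 PL (adjusted p = 0.031, where 33.9% of all genes passed). The same held in a fit of the 6 libraries alone (adjusted p = 0.0283) and with the replicate number as a block (adjusted p = 0.04). With 1w BM in place of Perinatal BM the Robo4 difference was -0.27. Eng, Pecam1, Cldn5 and Sox17 were not called. Eng was at 38.5 ± 0.995 FPKM in Perinatal BM and 42.9 ± 2.91 FPKM in E16.5 FL, with n = 3 each and SD as error. Cldn5 was at 0.646 ± 0.393 FPKM in Perinatal BM and 0.516 ± 0.158 FPKM in E16.5 FL.

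The adult end, 8w BM, was set against Perinatal BM and against E16.5 FL, in comparisons that share the 8w BM libraries. Between 8w BM and E16.5 FL, too, organ label and age differ together and cannot be told apart. Eng, Pecam1 and Erg were higher in 8w BM than in Perinatal BM, and Robo4, Emcn, Cldn5 and Cdh5 lower, which makes 7 of 10 genes where 37.8% of all genes passed, 19.2% as higher and 18.6% as lower. Against E16.5 FL, Pecam1 and Eng were higher and Emcn, Cdh5, Robo4, Tek, Cldn5 and Sox17 lower, 8 of 10 where 40.2% passed, 20.5% as higher and 19.7% as lower. The count against E16.5 FL was 5 without a filter on low values, where Cldn5, Sox17 and Eng were not called (adjusted p = 0.0579, 0.0641 and 0.0508), and 5 in a fit of the 6 libraries alone, where Cdh5, Cldn5 and Sox17 missed the filter and were not tested. With 1w BM in place of Perinatal BM only 2 genes were called, Pecam1 higher (0.35) and Cldn5 lower (-0.55), where 18.7% of all genes passed. Macrophage genes summed to 152 to 240.2 FPKM in 8w BM, against 51.5 to 59.9 FPKM in Perinatal BM and 63.7 to 69.5 FPKM in E16.5 FL, and 13 of 15 reached 1 FPKM in 8w BM. Genes of megakaryocytes and platelets summed to 232 to 237 FPKM in 8w BM, 142 to 196 FPKM in Perinatal BM and 127 to 141 FPKM in E16.5 FL. Their part in the higher levels of Pecam1 and Eng, which macrophages and platelets can carry, was not tested.

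Robo4 was at 9.23, 7.41 and 6.52 FPKM in 8w BM and at 22.4, 23.4 and 16.4 FPKM in Perinatal BM, 2.49-fold lower (log2 difference -1.32 ± 0.20, SE; limma, adjusted p = 1.97e-05). With 1w BM in place of Perinatal BM its difference was -0.54 (adjusted p = 0.0617). Emcn was at 8.69, 7.67 and 7.38 FPKM in 8w BM and at 13.3, 12.4 and 10.6 FPKM in Perinatal BM, 1.47-fold lower (adjusted p = 0.00503), but it missed the threshold against 1w BM (-0.38, adjusted p = 0.0804). Against E16.5 FL, Emcn was 2.36-fold lower (adjusted p = 6.17e-07), and no alternative ended that call. Tek was at 4.44, 4.29 and 4.39 FPKM in 8w BM, 1.56-fold below E16.5 FL (adjusted p = 0.000182), and it overlapped with Perinatal BM. Emcn, Tek and Robo4 were thus each lower in the adult marrow than in E16.5 FL.

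Among the scarce genes, Cdh5 was at 0.0461, 0.183 and 0.0416 FPKM in 8w BM, far below the 0.994 to 1.29 FPKM of E16.5 FL (SE of the log2 difference 0.11; limma, adjusted p = 2.90e-07). Against Perinatal BM its difference of -0.32 was not called without Perinatal BM library 1 or 8w BM library 1 or 3 (adjusted p of 0.0855 to 0.256). Cldn5 was at 0.149, 0.168 and 0.145 FPKM in 8w BM and at 0.979, 0.213 and 0.746 FPKM in Perinatal BM (-0.48, adjusted p = 0.0126), and not called without Perinatal BM library 1 or 3 (adjusted p of 0.0509 to 0.0986). Against E16.5 FL, Cldn5 (-0.39) and Sox17 (-0.37) were just under the threshold, at adjusted p = 0.0393 and 0.0477. Cldn5 was called there without E16.5 FL library 3 and Sox17 without E16.5 FL library 1, and neither was called without any 1 of the other 5 libraries (adjusted p of 0.074 to 0.139 for Cldn5 and 0.0847 to 0.161 for Sox17). Kdr was at 0.325, 0.426 and 0.418 FPKM in 8w BM and at 0.111, 0.0474 and 0.203 FPKM in Perinatal BM. It did not overlap but missed the threshold (0.31, adjusted p = 0.0666), and it was called higher in the fit without E12.5 PL (adjusted p = 0.0237; 44.4% of all genes passed there) and with a pseudocount of 0.1 (adjusted p = 0.00116).

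Pecam1, Eng and Erg, the abundant genes, were higher in 8w BM than in Perinatal BM. Pecam1 was at 40.4, 38.2 and 34.4 FPKM in 8w BM, at 27.6, 25.3 and 29.7 FPKM in Perinatal BM and at 24.9, 28.0 and 25.6 FPKM in E16.5 FL. It was 1.35-fold higher than in Perinatal BM (limma, adjusted p = 0.00669) and 1.42-fold higher than in E16.5 FL (adjusted p = 0.00184), with no overlap in either. Eng was at 48.9, 54.8 and 57.5 FPKM in 8w BM and at 39.6, 37.7 and 38.3 FPKM in Perinatal BM, 1.38-fold higher (adjusted p = 0.00297), but only by 0.21 and not called against 1w BM. Its difference of 0.32 from E16.5 FL (adjusted p = 0.033) was not called without E16.5 FL library 1 or 2 or 8w BM library 2 or 3 (adjusted p of 0.0807 to 0.12). Erg was at 47.1, 40.7 and 37.7 FPKM in 8w BM and at 31.99, 33.84 and 32.66 FPKM in Perinatal BM (0.34, adjusted p = 0.0168). It was not called without Perinatal BM library 1 or 8w BM library 1 (adjusted p of 0.0522 to 0.106), and the difference was -0.09 against 1w BM.

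**Figure D4:**
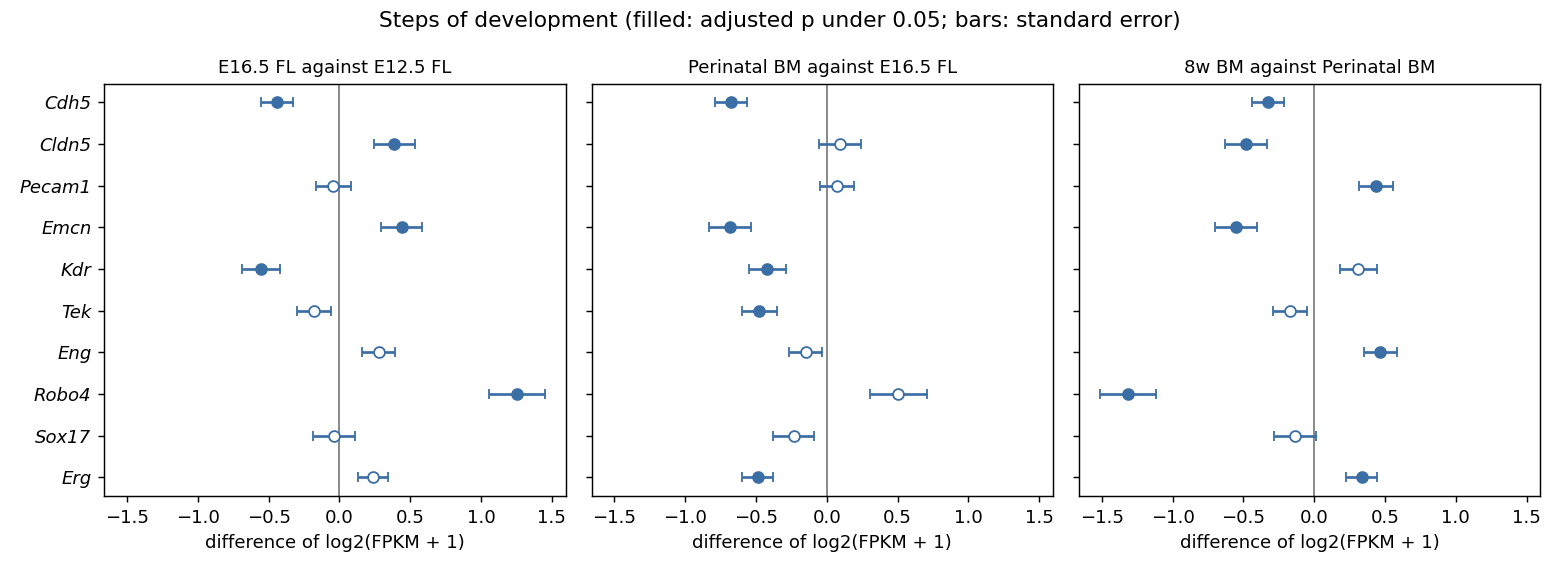
Differences of log2(FPKM + 1) for the 10 genes in 3 steps of development, later minus earlier group, with limma estimates, standard errors as bars, and filled points for an adjusted p under 0.05 (3 libraries a group). Robo4 rises by 1.25 in E16.5 FL and falls by 1.32 in 8w BM, and no filled point lies right of 0 in Perinatal BM.

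Within the marrow, successive ages were compared, each step sharing a group with the next. At 1w BM against Perinatal BM, Robo4 was lower (-0.78) and Erg higher (0.43), 2 of 10 genes where 17.6% of all genes passed, 8.6% as higher and 8.97% as lower. The Robo4 call was lost without 1w BM library 3 (adjusted p = 0.0748) and the Erg call without 1w BM library 1 (adjusted p = 0.0572). At 3w BM against 1w BM, Tek was at 3.00, 2.91 and 3.47 FPKM in 3w BM and at 4.80, 5.44 and 5.08 FPKM in 1w BM (-0.57, limma, adjusted p = 0.00391). Robo4 (-0.71) and Cldn5 (-0.56) were also lower, 3 of 10 where 10.4% of all genes passed and 4.76% as lower, but each was not called without 1 of 4 libraries. For Robo4 these were 1w BM libraries 1 and 2 and 3w BM libraries 1 and 3 (adjusted p of 0.0792 to 0.115), and for Cldn5 1w BM libraries 1 and 3 and 3w BM libraries 1 and 3 (adjusted p of 0.0618 to 0.0782). The 3w BM group held the lowest Tek and Emcn means of all groups, 3.12 ± 0.298 and 7.50 ± 1.00 FPKM (SD, n = 3). Emcn, however, overlapped between 3w BM and 1w BM and was not called there (limma, adjusted p = 0.0534). Its 3w BM mean was also close to that of 8w BM, 7.91 FPKM (adjusted p = 0.834).

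At 4w BM against 3w BM, Emcn (0.62), Tek (0.43) and Erg (0.43) were higher, 3 of 10 genes where 9.28% of all genes passed and 4.72% as higher (limma, adjusted p = 0.0115, 0.0268 and 0.0155). Emcn was at 10.6, 12.7 and 12.9 FPKM in 4w BM and at 7.90, 8.24 and 6.36 FPKM in 3w BM. Erg was at 55.9, 46.9 and 55.6 FPKM in 4w BM and at 35.2, 40.8 and 40.7 FPKM in 3w BM. Neither gene overlapped between these ages. Without 4w BM library 3 none of the 3 was called (adjusted p of 0.0602, 0.076 and 0.0737 for Emcn, Tek and Erg). Emcn was also lost without 3w BM library 3 (0.0608), and Erg without 3w BM library 1 (0.0955) or 4w BM library 1 (0.0842). Tek was not called without any 1 library other than 3w BM library 3 (adjusted p of 0.0505 to 0.101). In a fit without E12.5 PL, 5 genes were called higher at this step, where 6.96% of all genes passed as higher. At 6w BM against 4w BM and at 8w BM against 6w BM none of the 10 was called (limma; 3.94% and 8.18% of all genes passed). An unadjusted p under 0.05 was seen for Pecam1 alone at 6w BM and for 0 genes at 8w BM, and 1 gene was called higher at 6w BM in the fit without E12.5 PL, where 3.54% of all genes passed as higher.

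Over the 15 libraries from 1 to 8 weeks a slope per week was fitted to the 6 genes that passed the filter there. Pecam1 rose by 0.06 ± 0.01 on the log2 scale per week (SE; limma, adjusted over 11667 genes, adjusted p = 0.00439), where 16.3% of all genes had a slope and 9.31% an upward one. Its levels were 26.4, 30.3 and 31.0 FPKM at 1w BM, 29.0, 31.2 and 32.9 at 3w BM, 34.1, 33.5 and 30.9 at 4w BM, 41.2, 42.9 and 37.7 at 6w BM, and 40.4, 38.2 and 34.4 at 8w BM. The 6w BM and 8w BM libraries lay above all those of the 3 earlier ages. Slopes of the other 5 genes ran from -0.05 for Robo4 to 0.03 for Eng and were not called (adjusted p from 0.23 to 0.984).

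The lists of vascular genes were also followed after E12.5. In E16.5 FL against E12.5 FL, 5 of 20 receptors were higher and 3 lower, with a median log2 difference of 0.01 for the list and 0.01 for all genes, of which 34.6% passed, 19% as higher and 15.6% as lower. The called shares of the 4 lists were near that background. Notch1 averaged 81.6 ± 4.01 FPKM in E16.5 FL and 34.2 ± 1.76 FPKM in E12.5 FL (SD, n = 3 each), and S1pr1, a receptor of sphingosine-1-phosphate, was 2.21-fold higher. Calcrl was 1.37-fold lower, a call lost without E16.5 FL library 1 or 2 (limma, adjusted p = 0.0759 and 0.0592). Of 17 ligands, 4 were higher and 1 lower (median 0.07), among them Vegfa, the ligand of Kdr (3.12-fold higher), and the Notch ligand Jag2 (1.82-fold higher). Of 30 surface and junction genes, 4 were higher and 8 lower (median -0.03). The protein C receptor Procr and the endothelial protein Myct1 were 3.37-fold and 2.38-fold higher, and the sialomucin Podxl and the caveolar protein Plvap 2.11-fold and 1.76-fold lower. Of 29 transcription factors, 8 were higher and 2 lower (median 0.11). The Notch targets Hes1 and Hey1 were 10.1-fold and 5.23-fold higher, and Sox18 was 2.47-fold lower. Gfi1b was 1.56-fold lower in E16.5 FL (adjusted p = 0.0449), and not called without E12.5 FL library 2 or 3 or E16.5 FL library 1 or 3 (adjusted p of 0.108 to 0.131).

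In Perinatal BM against E16.5 FL, the called genes on these lists were mostly lower. Their number in either direction was near the background, 28.4% of all genes called. Of all 13350 genes tested, 14.2% passed as lower and 1896 genes as higher, and each list had a larger share called lower. Of 20 receptors 1 was higher and 5 lower, of 17 ligands none was higher and 6 lower, of 30 surface and junction genes 2 were higher and 8 lower, and of 29 transcription factors 1 was higher and 8 lower. Their medians were -0.14, -0.14, -0.13 and -0.23, against 0 over all genes. Tie1, the orphan partner of Tek, averaged 18.2 ± 2.02 FPKM in Perinatal BM and 28.6 ± 4.51 FPKM in E16.5 FL (SD, n = 3 each). S1pr1 was 1.77-fold lower, and not called without E16.5 FL library 1 or Perinatal BM library 1 or 2 (limma, adjusted p of 0.0526 to 0.0598). Pdgfb was 2.31-fold and Vegfb 1.33-fold lower, Procr 1.95-fold and the junction protein Esam 1.84-fold lower. Vegfb (-0.14, adjusted p = 0.374) and Procr (-0.61, adjusted p = 0.0568) were not called with 1w BM in place of Perinatal BM. Lower too were the transcription factors Mecom and Ets2, by 2.16-fold and 1.77-fold. Gata2, a factor of haemogenic endothelium, stem cells and mast cells, was 2.38-fold higher. Thbd, which encodes thrombomodulin, was 1.49-fold higher, a call that was kept only without Perinatal BM library 2 (adjusted p of 0.0729 to 0.12 without any of the other 5 libraries), and it was -0.34 with 1w BM.

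In 8w BM, 9 of 20 receptors were lower than in Perinatal BM and 13 of 20 lower than in E16.5 FL. In each, 1 was higher, and the medians were -0.30 and -0.51. Of all genes, 18.6% and 19.7% passed as lower in these comparisons, 19.2% and 20.5% as higher, and 37.8% and 40.2% in either direction. Set against 1w BM and not Perinatal BM, 4 ligands in place of 8 and 6 surface and junction genes in place of 13 were called. The share of all genes that passed fell as well, from 37.8% to 18.7%. Ramp2, the partner of Calcrl, averaged 0.742 ± 0.387 FPKM in 8w BM, 5.57 ± 1.21 FPKM in Perinatal BM and 6.50 ± 0.411 FPKM in E16.5 FL (SD, n = 3 each). S1pr1 was 5.07-fold lower in 8w BM than in E16.5 FL. Of 17 ligands, 3 were higher and 5 lower than in Perinatal BM (5 called in all in a fit of those 6 libraries alone), and 1 higher and 6 lower than in E16.5 FL. Angpt1 was 1.81-fold higher than in Perinatal BM, Jag2 2.45-fold lower, and Pdgfb 5.25-fold lower than in E16.5 FL. Of 30 surface and junction genes, 4 were higher and 9 lower than in Perinatal BM, and 3 higher and 11 lower than in E16.5 FL. The platelet and endothelial protein Vwf averaged 8.27 ± 1.22 FPKM in 8w BM, 2.23 ± 0.675 FPKM in Perinatal BM and 3.23 ± 0.652 FPKM in E16.5 FL, and Icam2 was 1.97-fold higher in 8w BM than in Perinatal BM, but by 0.28 and not called against 1w BM (adjusted p = 0.245). Ecscr and Jam3 were 6.63-fold and 4.90-fold lower in 8w BM than in E16.5 FL. Of 29 transcription factors, 9 were higher in 8w BM in each comparison, and 7 lower than in Perinatal BM and 12 lower than in E16.5 FL. Hes1 averaged 59.3 ± 54.2 FPKM in 8w BM, so its libraries were far apart, against 276 ± 83.9 FPKM in Perinatal BM and 327 ± 17.6 FPKM in E16.5 FL. Gfi1b and Tfec were 2.47-fold and 2.24-fold higher and Hey1 2.66-fold lower than in Perinatal BM. Against 1w BM, Gfi1b (0.67, adjusted p = 0.0599) and Tfec (0.30, adjusted p = 0.346) were not called. Foxo1 was 3.06-fold lower than in E16.5 FL.

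Across the 24 libraries without E12.5 PL, the 8 genes that passed the filter did not move as 1 group. Of their 28 pairs, 15 had a Pearson correlation of log2(FPKM + 1) above 0, and the median was 0.00696. Cdh5 and Tek were the most alike (r = 0.885, n = 24), followed by Cdh5 and Kdr (r = 0.818) and by Tek and Emcn (r = 0.797). Cdh5 and Eng were the least alike (r = -0.641). These points are 3 libraries each of 8 groups and share group means, so the values are descriptions. Among 12094 genes, those nearest to Cdh5 were Igf2bp1 (r = 0.977), Igf2 (r = 0.974) and Peg3 (r = 0.965), and those nearest to Tek were Mmrn1 (0.938), Palld (0.93) and Tom1l1 (0.928). Robo4 was most like Mgat4a (0.941), Efcc1 (0.907) and Tpp1 (0.897), and Kdr most like Evc (0.922), Evc2 (0.91) and Kif26a (0.908). Nearest to Pecam1 were H2-Q8 (0.896), Ffar2 (0.887) and Fgf3 (0.886). Nearest to Eng were Gltscr1l (0.956), Mprip (0.929) and Pml (0.924). For Emcn they were Armcx6 (0.894), Tmtc2 (0.892) and Armcx2 (0.891), and for Erg Proser3 (0.818), Tert (0.809) and Rdh11 (0.806).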

How the data were processed

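Total RNA of purified HSPCs was sequenced in 27 libraries made with an Illumina TruSeq kit, per the labels' protocols. STAR 2.7, HTSeq 0.6.1p1, Trim Galore, FastQC and the GRCm38 build are listed in the submitters' processing notes. Values were used as FPKM, deposited by the authors; the tool behind them, its annotation and any further scaling are not named in the sources used here. The 13350 genes that reached 1 FPKM in 3 or more libraries were tested on log2(FPKM + 1) with limma 3.58.1 in R 4.3.3 (lmFit, eBayes with a trend), with 9 group means over 27 libraries, and p-values were adjusted by Benjamini and Hochberg over all genes of a comparison (threshold 0.05). Nothing says that libraries of a group came from separate animals, so p-values reflect the spread of these libraries alone, which may be technical. Separate fits took 24 libraries without E12.5 PL (12094 genes) and 15 libraries of 1w to 8w BM (11667 genes). The calling was tested on simulated data. From each vascular list, up to 2 genes in each direction were named, those with the largest fold among called genes that averaged 5 FPKM or more in the higher group and did not overlap. The 10 genes, the lists and the tests were chosen with earlier results of these data known. Start sites and motifs came from the RefSeq promoter table. Other settings tried were no filter, a filter at 5 FPKM, a pseudocount of 0.1, median-of-ratios scaling, a fit of the compared libraries alone, a replicate block, leaving out each library, and leaving out E12.5 PL. Figures were drawn with matplotlib 3.10.9 in Python 3.11.15.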

Additional observations from a re-analysis of the deposited data

How the results depend on the processing

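Depth is unknown, values under 1 FPKM carry few reads, and with 3 libraries a group single libraries decide many calls. Of 35 calls of single genes in the 5 main comparisons, 24 held under every setting that tested them, leaving aside the added comparison with 1w BM. The 24 include all 10 calls for E12.5 PL against E12.5 FL, of which those of Cldn5 and Sox17 were built into the filter. The share that held was thus smaller in the other 4 comparisons. For 8w BM against E16.5 FL the count of the 10 genes was 8, but 5 without a filter and 5 in a fit of the 6 libraries alone, in which Cdh5, Cldn5 and Sox17 missed the filter and the other 5 were still called. For Perinatal BM against E16.5 FL it was 5, but 3 in a fit of the 6 libraries alone, in which Cdh5 and Kdr missed the filter, Tek was lost and Robo4 was gained. Without E12.5 PL, 5 genes in place of 3 were called for 4w BM against 3w BM and 1 in place of 0 for 6w BM against 4w BM. With 1w BM in place of Perinatal BM, chosen after seeing the data, 2 in place of 7 were called against 8w BM. Without a filter, 3 genes in place of 1 had an age slope. The cause of the shifts other than in the fits of 6 libraries was not tested.

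With 1 library left out, the count ranged from 8 to 10 for E12.5 PL against E12.5 FL, because Cldn5 and Sox17 then had too few libraries at 1 FPKM to be tested when an E12.5 PL library was left out. It ranged from 3 to 5 for E16.5 FL against E12.5 FL, 4 to 6 for Perinatal BM against E16.5 FL, 4 to 7 for 8w BM against Perinatal BM, 5 to 7 for 8w BM against E16.5 FL, 1 to 3 for 1w BM against Perinatal BM, 1 to 3 for 3w BM against 1w BM and 0 to 4 for 4w BM against 3w BM. It stayed at 0 in the last 2 steps and at 1 for the slope, was 7 to 8 for the F test, and 12 to 15 of 80 for neighbouring groups. No difference was called after its sign changed. Sox17, E16.5 FL against E12.5 FL, turned to 0.06 without E12.5 FL library 3 and 0.0766 without E16.5 FL library 1, in a range from -0.0999 to 0.0766. Cldn5, Perinatal BM against E16.5 FL, turned to -0.0538 without Perinatal BM library 1, in a range up to 0.299. With 1w BM in place of Perinatal BM, differences from E16.5 FL turned to -0.27 for Robo4, 0.11 for Eng and -0.34 for Thbd, and those of 8w BM to 0.0086 for Sox17 and -0.092 for Erg.

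Replicate numbers did not pair the libraries. Residual correlations of same-numbered libraries ran from -0.15 to 0.09, and 8 of 27 libraries were closest to their own number. With the replicate number as a block the counts were 10, 5, 6, 7 and 8 in the 5 main comparisons, 2, 3, 4, 0 and 0 in the 5 steps, 15 for neighbouring groups, 8 for the F test and 1 for the slope.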
